A study of Homo sapiens with 4 samples.

Results

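The 200 named genes with the brightest signal in every sample were followed in control and berberine-treated HepG2 cells. For each gene the probe with the highest minimum intensity over the 4 arrays was kept, the genes were ranked by that minimum, and the top 200 of 17778 named genes were taken. Ribosomal, mitochondrial ribosomal, proteasome, DNAJ, heat shock and mitochondrial carrier (SLC25) genes and CEBPA, CEBPB, ZFP36L1 and MAGED1 were left out before ranking, by name alone. Of the genes left out, 9 were brighter than the last gene taken, so the 200 reach a little below the top 200 of all names. The genes were chosen by their measured levels, and those are therefore given as a description without a test. The rule did not use the difference between treated and control cells, although a gene that was dim in either group could not enter.

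Genes with very abundant transcripts usually encode proteins that every cell needs in bulk, such as RNA-binding proteins, translation factors, actin regulators, chaperonins and parts of the respiratory chain. In hepatocyte-derived cells, transcripts of secreted plasma proteins and of iron and lipid handling are usually abundant as well. Array brightness also depends on how well a probe hybridises, so it orders probes and not transcripts, and the level of one gene cannot be set against that of another here.

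HepG2 is an established human hepatocellular carcinoma line, and berberine is a plant alkaloid. Untreated cells (2 arrays) were compared with cells given 26.95 µM berberine for 24 hours (2 arrays), with Cy5-labelled amplified RNA on 1-colour arrays. The description field instead names MDI-induced differentiation, 48 hours and, for the treated arrays, 13.47 µM berberine. The conflict is unresolved, and the titles, source names and treatment protocol were followed. Whether the arrays of a group stem from separate cultures is not stated, so the p-values reflect array-to-array spread that may be technical.

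All probes carry identifiers of a mouse array, whereas the labels give human cells. Which cells were hybridised is therefore not settled here, and HepG2, control and berberine are used below as the labels give them. Each gene name below is thus the name of a mouse probe, and if the RNA was human its signal does not measure the transcript directly. The median over all 26423 probes was 62 to 90 per array, and values below 0 numbered 0 to 269 per array. The 528 olfactory receptor (OLFR) genes, a background reference, had a median of 6.05 and a 95th percentile of 9.24 on the log2 scale. Of 13 measured hepatocyte markers, 0 were among the 200 and GPC3, at 9.52, was the only one above that percentile. AFP was the lowest, at 4.75, and ALB lay at 8.35. FGG, a fibrinogen chain, was the only one past the trend test described below, with means of 6.76 in the controls and 4.99 with berberine. Of 8 measured adipocyte markers 0 lay above it. Lymphocyte markers (5 of 6 measured) summed to 1758 to 2503 intensity units in the controls and 912 to 1074 with berberine. By their mean over the 4 arrays none of these 5 lay above the background percentile, the highest being CD79A at 9.16. Of the 5, 0 passed the trend test. Neuron markers (3 of 6 measured) summed to 371 to 396 in the controls and 412 to 478 with berberine, and 0 passed. For hepatocyte, adipocyte, fibroblast, macrophage, endothelial, skeletal muscle and erythroid markers the sums of the groups overlapped. The part of such differences in the results below was not tested. In bulk RNA, fewer cells of a type and less RNA per cell cannot be told apart.

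The brightest probe of the array was that named DCK, for deoxycytidine kinase, which phosphorylates nucleosides for DNA synthesis. Control 1 gave a deposited intensity of 106868, control 2 of 77843, berberine 1 of 90298 and berberine 2 of 100799. It ranked first in every array, and quantile normalization gives equal values to equal ranks, so its normalized difference of 0.00 is fixed by construction. HNRNPD, an RNA-binding protein of AU-rich messages, followed with 69068 and 59469 in the controls and 40269 and 48229 with berberine. Both its treated values lay below both controls. GM12372, a predicted mouse gene, read 38777, 33281, 34955 and 41403 in the same order of arrays. VAPA, an anchor of the endoplasmic reticulum to other membranes, read 44854, 36945, 31556 and 37103. For GM12372 and VAPA the deposited values of the groups overlapped, although after normalization both treated values lay below both controls.

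LGALS1, the secreted lectin galectin-1, came next. It read 33395 and 30736 in the controls against 63706 and 75842 with berberine. OST4, a small subunit of the oligosaccharyltransferase, went the other way, from 63719 and 50345 to 27205 and 30161. Neither gene's groups overlapped. LRRN3, a leucine-rich repeat membrane protein, held 30558 to 40967 over the 4 arrays, with overlapping groups. PCBP1, a poly(C)-binding protein, held 26200 to 32475, and SET, a histone chaperone and phosphatase inhibitor, 25191 to 34911. FTH1, the ferritin heavy chain that stores iron, held 25013 to 47337, and HNRNPAB, another RNA-binding protein, 24338 to 30897. CALM2, which encodes calmodulin, held 22457 to 31816.

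Below these 12 the signal declined steadily, as the plot of intensity by rank shows. The minimum intensity was 77843 for the first gene, had a median of 4538.5 over the 200, and was 2673 for the last. Over all named genes the median minimum was 71. A minimum of at least 10000 was reached by 34 of the 200. The last genes inside the limit were LAMC1, a laminin chain (minimum 2691), NPEPPS, an aminopeptidase (2679), and OLFR1358, an olfactory receptor (2673). Just outside lay PBX2, a homeodomain factor (2668), GNAT1, a transducin of rod photoreceptors (2664), and BCLAF1, a transcription factor (2655). The limit thus falls where neighbouring genes differ by a few intensity units.

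**Figure D1:**
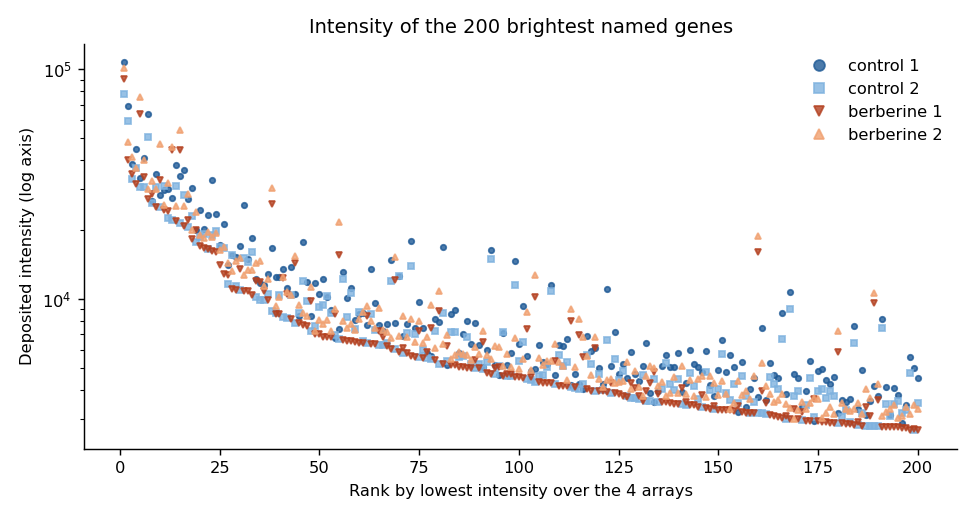
Deposited intensity (log axis) of each of the 200 genes in the 4 arrays, against the gene's rank by its lowest value. Blue symbols are controls and red or orange symbols berberine. Lowest values run from 77843 at rank 1 to 2673 at rank 200, and a few genes, JAG1 at rank 160 among them, stand far above the lower edge in 1 group.

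In single arrays, 177 to 182 of the 200 were among the 200 brightest, and 157 were so in all 4, which follows largely from the choice by the minimum. Together they made up 32.4% and 32.5% of the summed intensity of the named genes in the controls and 32.9% and 33.2% with berberine. The lowest of a gene's 4 values came from berberine 1 for 123 genes and from control 2 for 69, the arrays with the lowest medians over the 200 (4994.5 and 5357). The highest deposited value was typically 1.48 times the lowest (median over the 200).

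Names were compared with human gene symbols in RefSeq (GRCh38.p14). A current symbol was found for 174 of the 200 (87.0%), an older symbol for 10, and no match for 16 (8.0%). Over all named genes 72.2% equalled a current symbol and 21.5% had no match, and for the next 200 genes by rank the shares were 85.0% and 10.5%. Names without a human match included 10 mouse clone or predicted genes and the receptors OLFR214 and OLFR1358.

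A second probe existed for 44 of the 200 genes, 54 other probes in all. These were mostly dim, with a median level of 6.59 on the log2 scale against 12.68 for the chosen probes of the same genes. Only 10 of the 54, for 9 genes, lay above the olfactory receptor percentile, and 3 reached the limit of the 200. Of these 10, 8 changed in the same direction as the chosen probe. Both probes of ETFA, an electron carrier of fatty acid oxidation, were among the brightest and differed alike between groups (-0.46 and -0.42). EIF5A, a translation factor, had 3 bright probes at -0.50, -0.18 and -0.32. LMNA, which encodes lamins A and C, had bright probes at -0.35 and 0.15. For most of the set a value therefore rests on 1 probe. Of the 27 genes called in the trend test described below, 10 have another probe. With the mean of a gene's probes, RDBP and U2AF1 kept their calls (limma trend adjusted p-values of 0.0457 and 0.0492). The call was lost for OST4 (-0.27, limma trend adjusted p = 0.478), 1810013L24RIK (0.82, 0.0559), TMSB10 (0.52, 0.0808) and EIF4B (0.50, 0.121). It was also lost for CFL2 (-0.51, limma trend adjusted p = 0.214), ELAVL1 (-0.50, 0.191), RBP4 (-0.48, 0.142) and ARHGEF33 (-0.19, 0.708).

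Treated and control cells were then compared gene by gene, which describes how the arrays labelled berberine and control differ. Values were quantile normalized and taken as log2(intensity + 1). All 17778 genes were fitted with limma, and a call needs a Benjamini-Hochberg adjusted p under 0.05 over all of them. In the main test (constant prior variance) 1 of the 200, JAG1, was called, as higher, and 0 were lower. Over all genes the main test called 0.0506%, with 0.0450% higher and 0.00562% lower. In the trend test, where the prior variance follows the signal, 27 were called. Of these 14 were higher and 13 lower (7.0% and 6.5%). Over all genes the trend test called 1.47%, with 0.962% higher and 0.512% lower. The median replicate SD was 0.080 for the 200 and 0.147 for all genes after quantile normalization, 0.174 and 0.329 as deposited, and 0.161 and 0.180 with median centring. Within the bright end it did not fall further with signal, at 0.097 for the brightest 50, 0.060 for the dimmest 50 of the 200 and 0.074 for the next 200. Of the next 200 genes 16 were called (8.0%). Leaving out any one of the 4 arrays (control 1, control 2, berberine 1 or berberine 2) ended every call of both tests. Unadjusted limma trend p-values under 0.05 then numbered 112, 114, 75 and 72 of the 200, against 110 with all arrays (55.0%, beside 14.7% of all genes). In the main test 77 of the 200 had an unadjusted limma p under 0.05 (38.5%), beside 13.1% of all genes.

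The median log2 difference of the 200 was -0.021, and that of all genes -0.011. Single genes ran from -1.46 (PGP) to 2.48 (JAG1). In the trend test the standard errors of the 27 called differences lay between 0.0586 (CFL2) and 0.128 (1810013L24RIK). The median absolute difference was 0.263 for the 200, 0.216 for the next 200 and 0.184 for all genes. A 2-fold change or more was reached by 10 genes upward and 7 downward, and by 2.37% of all genes in either direction. The difference was under 0.25 in either direction for 97 of the 200. Groups did not overlap for 150 genes, 68 higher and 82 lower. That is 75.0%, against 45.0% of all genes (21.6% higher, 23.4% lower) and 74.5% of the next 200.

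The scaling decides how the set as a whole stands. With values as deposited its median was -0.160 while that of all genes was 0.078, and with median centring the values were -0.273 and -0.035. The set thus stood 0.238 below all genes as deposited. Median centring shifts every gene of an array alike, so it gives the same 0.238 by construction. After quantile normalization, which gives the bright end of every array the same distribution, the set stood 0.010 below. Within the set, groups apart numbered 34 higher and 91 lower as deposited, and 24 and 116 with median centring. The trend test called 10 higher and 12 lower as deposited and 2 and 5 with median centring. The matching counts over all genes are not given here for values as deposited or with median centring. These counts alone therefore do not show how far the set differs from other genes. Of the 27 genes called after quantile normalization, 18 and 7 were called again, and 0 turned direction under either scaling. Role medians given below follow quantile normalization, and with median centring all but that of ubiquitin and protein folding were negative.

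**Figure D2:**
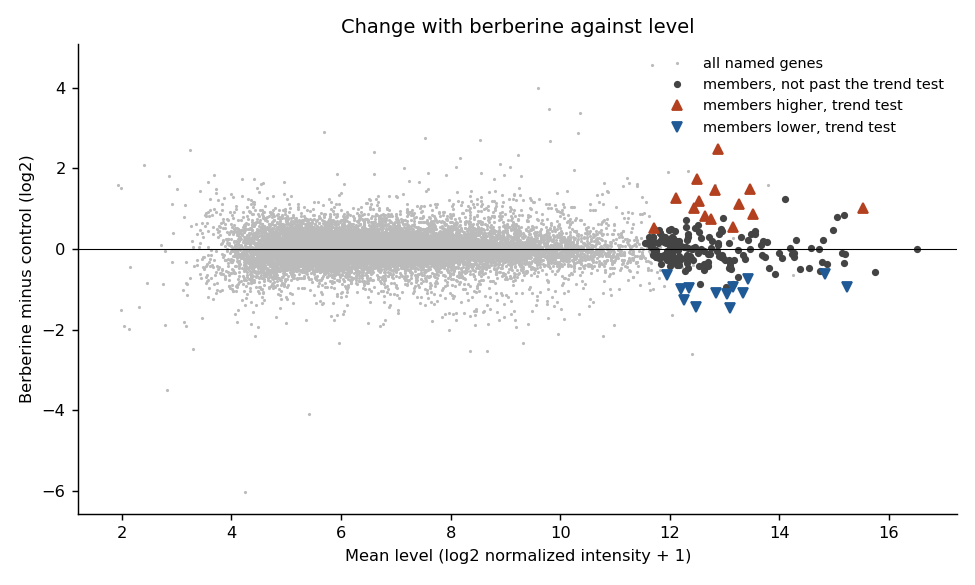
Difference between berberine and control means (log2) against mean level for all 17778 named genes (grey) and the 200 brightest. Triangles are the 14 genes higher and the 13 lower in the trend test, and dark dots the other 173. The called genes run from -1.46 to 2.48, and some uncalled ones, such as KCMF1 at 1.24, lie further out than the smallest called differences, such as ARHGEF33 at 0.53.

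Signalling genes held 7 of the 14 rises and 0 of the falls in the trend test (25 genes, median 0.11). Over the 200 the trend test called 7.0% higher and 6.5% lower, and over all genes 0.962% and 0.512%. These shares also stand beside the counts of the other roles below. Roles were assigned after the values were seen, so this split by role is a description only. With median centring the role's median was -0.05, 15 of the 25 were negative and 1 was called higher, and as deposited the median was 0.06, with 5 called higher and 1 lower. JAG1, a ligand of Notch receptors, read 3737 and 3168 in the controls and 15898 and 18845 with berberine. On the log2 scale the controls averaged 11.65 ± 0.01 and the treated arrays 14.12 ± 0.02 (SD, n = 2 in each group). It rose 5.56-fold, with limma adjusted p-values of 0.0454 in the main and 0.00116 in the trend test. It had the largest difference of the 200. PTPN12, a phosphatase of focal adhesion proteins, went from 4220 and 4147 to 8025 and 9022, a log2 difference of 1.19 (limma trend adjusted p = 0.0160). GADD45A, a stress-induced gene of growth arrest and DNA repair, went from 7821 and 6035 to 12118 and 15196 (1.11, limma trend adjusted p = 0.0108). LGALS1 rose by 1.02 (limma trend adjusted p = 0.0160), and its treated SD of 0.00 reflects the same rank in both treated arrays. MAP3K14, the kinase NIK of the non-canonical NF-kB pathway, went from 4260 and 4059 to 6976 and 8188 (1.01, limma trend adjusted p = 0.0165). The groups were apart for these 5 genes.

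The other rises of this role were smaller. RAP1B, a small GTPase of adhesion, went from 5622 and 5461 to 7453 and 9374 (0.75, limma trend adjusted p = 0.0434). ARHGEF33 went from 3134 and 2795 to 3379 and 4043 (0.53, limma trend adjusted p = 0.0403). Its dimmer second probe, at a level of 7.23, was at -0.91. Phosphatase 2A subunits stood higher without passing the test. The catalytic subunit PPP2CB was at 0.80 and the regulatory subunit PPP2R5D at 0.47, with limma trend adjusted p-values of 0.128 and 0.0531. PPM1G, another phosphatase, was at -0.46, PRKACA, the catalytic subunit of protein kinase A, at -0.49, and CTDNEP1, a nuclear envelope phosphatase, at -0.86, also short of the threshold. ADIPOR2, an adiponectin receptor, was at -0.03, and PDPK1, the kinase that activates AKT, at -0.01.

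RNA-binding and RNA-processing genes formed an equally large role (25 genes). Their median was -0.23, with 1 rise and 4 falls in the trend test. Both treated values lay below both controls in 12 of the 25 and above them in 8, beside 41.0% and 34.0% of the 200 and 23.4% and 21.6% of all genes. ELAVL1, which encodes the mRNA-stabilising protein HuR, went from 11514 and 10855 to 4305 and 5336 (-1.10, limma trend adjusted p = 0.0253). Its second probe, dim at 6.56, was at 0.09. EWSR1, an RNA-binding protein of the FET family, went from 7592 and 6408 to 2833 and 3326 (log2 means of 12.71 and 11.70, limma trend adjusted p = 0.00805). U2AF1, which recognises the end of introns, went from 14802 and 11955 to 6042 and 6740 (-0.94, limma trend adjusted p = 0.0124). HNRNPU, a nuclear matrix protein that binds RNA, went from 17614 and 12002 to 7683 and 8644 (-0.74) and passed narrowly (limma trend adjusted p = 0.0499). In all 4 genes the higher treated value lay below the lower control.

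NUDT21, a cleavage factor that chooses polyadenylation sites, was the only RNA gene called higher in the trend test. It went from 10486 and 7867 to 14274 and 15341 (0.87, limma trend adjusted p = 0.0256). HNRNPD at -0.57, HNRNPM at -0.62 and NCL, the nucleolar protein nucleolin, at -0.55 had limma trend adjusted p-values of 0.0559, 0.234 and 0.0765. HNRNPM had unequal controls, 25528 and 15111. The poly(C)-binding proteins stood slightly higher, PCBP1 at 0.22 and PCBP2 at 0.38, and did not pass. Of the fixed list of splicing and RNA-binding proteins (56 measured), 10 were among the 200 (17.9%), with 0 higher and 3 lower in the trend test. Over the whole list the counts were also 0 and 3. QK, an RNA-binding regulator of splicing, was at -0.26 with its member probe. A second probe, at a level of 9.84, was at -1.61, from 1935 and 1570 to 461 and 519 (limma trend adjusted p = 0.00574 with each named probe as its own row).

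Genes of ubiquitin transfer and protein folding had a positive median (19 genes, 0.29), with 2 rises and 1 fall in the trend test. The median was 0.14 as deposited and 0.03 with median centring, where 0 were called higher and 1 lower. RNF103, an E3 ubiquitin ligase of the endoplasmic reticulum, went from 4925 and 4353 to 10155 and 12732 (1.46, limma trend adjusted p = 0.00566). RNF44, another RING finger protein, went from 8376 and 7223 to 9754 and 11198 (0.55, limma trend adjusted p = 0.0311). UBE2N, the E2 enzyme that builds K63-linked ubiquitin chains, went from 10671 and 9054 to 3006 and 3356 (-1.45, limma trend adjusted p = 0.00531). The E2 enzymes thus did not move alike. UBE2D3 was at 0.60, UBE2Z at 0.39 and UBE2D2 at -0.28, with limma trend adjusted p-values of 0.0718, 0.078 and 0.180.

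KCMF1, a ubiquitin ligase, was among the larger differences (1.24) but its controls were unequal, 16708 and 8821, against 25794 and 30495 (limma trend adjusted p = 0.0732). Subunits of the cytosolic chaperonin, which folds actin and tubulin, were at 0.44 (CCT8) and 0.50 (CCT7), and PFDN2, of the prefoldin complex that delivers to it, at 0.78. None of these 3 passed. STIP1, a co-chaperone, was at -0.23. The fixed list of the ubiquitin and chaperonin system had 7 of 41 measured genes among the 200, with 0 higher and 1 lower in the trend test. All 41 had a median of -0.062, with 1 higher and 1 lower.

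Among cytoskeletal and adhesion genes (17, median -0.12) 1 rose and 2 fell in the trend test. TMSB10, thymosin beta 10, which sequesters actin monomers, went from 7394 and 6655 to 15430 and 21547. It rose 2.83-fold, with log2 means of 12.71 ± 0.08 in the controls and 14.21 ± 0.18 with berberine (SD, n = 2, limma trend adjusted p = 0.0112). Its other 2 probes, at levels of 8.36 and 8.80, were at 0.16 and -0.09. CFL2, a cofilin that severs actin filaments, went from 38231 and 30870 to 21698 and 25400 (-0.63, limma trend adjusted p = 0.0211). LAMC1 went from 5555 and 4743 to 2691 and 3154 (-0.64, limma trend adjusted p = 0.0256). Profilins, which also bind actin monomers, were close to 0, PFN1 at -0.05 and PFN2 at -0.09. Lamin gene LMNA was at -0.35 (limma trend adjusted p = 0.258).

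**Figure D3:**
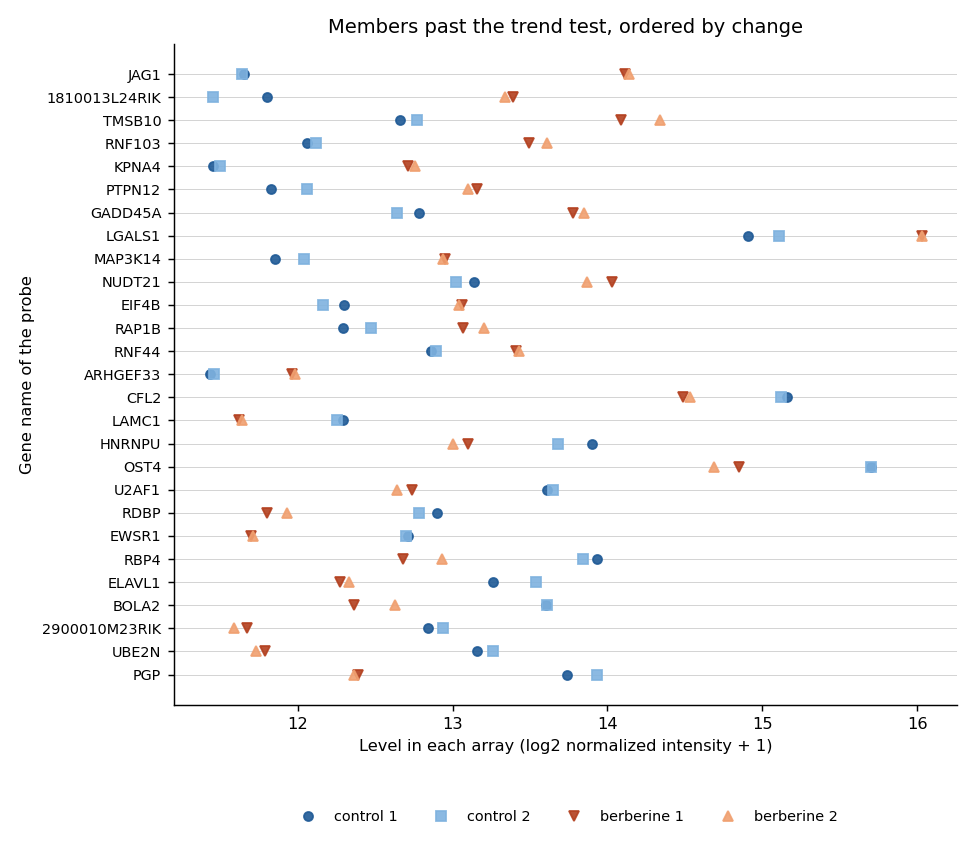
Level of each of the 27 genes past the trend test in the 4 arrays (log2 normalized intensity + 1), from the largest rise (JAG1) to the largest fall (PGP). Blue symbols are controls and red or orange symbols berberine. The 2 groups are apart in every row, with gaps that differ several-fold between genes.

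Metabolic and mitochondrial genes (19, median -0.14) had 0 rises and 3 falls. PGP, a phosphatase of glycolytic side products, went from 16327 and 14826 to 4703 and 5451. It fell 2.75-fold, with log2 means of 13.83 ± 0.14 in the controls and 12.37 ± 0.02 with berberine (SD, n = 2, limma trend adjusted p = 0.00733). BOLA2, which helps assemble iron-sulfur clusters, went from 14642 and 11514 to 4581 and 6716 (-1.11, limma trend adjusted p = 0.0221). The human gene has near-identical copies, which 1 probe could not separate if the RNA was human. RBP4, the plasma carrier of retinol, read 17823 and 13847 in the controls against 5611 and 8161 (-1.08, limma trend adjusted p = 0.0244). MAT2A, which makes the methyl donor S-adenosylmethionine, was at -0.93, with controls of 16821 and 8692 and a limma trend adjusted p of 0.155.

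Respiratory chain genes among the 200 had small negative differences and did not pass. COX8A was at -0.25, COX5A at -0.14 and ATP5G3, of the ATP synthase ring, at -0.11, and their fixed list (64 measured, 3 among the 200) had 0 calls in the trend test. PKLR, the pyruvate kinase of liver, was one of the steadiest genes after quantile normalization, at 0.00, and was at -0.11 as deposited. FTH1 stood at 0.47 (limma trend adjusted p = 0.206), with berberine values of 32882 and 47337. GPX4, which removes lipid peroxides, was at -0.19. SLC27A1, a fatty acid transporter, was at 0.23. The fixed lists of glycolysis (17 measured), lipid metabolism (37), mitochondrial import and TCA cycle (44) and nuclear transport (14) had 0 genes among the 200. These lists do not hold PKLR, SLC27A1 or KPNA4, so a count of 0 does not mean that the function is missing from the 200.

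In membrane traffic and secretion (20 genes, median -0.02), OST4 fell by 0.93 on the log2 scale (limma trend adjusted p = 0.0160), and it was the only call. Its control SD of 0.00 reflects the same rank in both controls, whose deposited values were 63719 and 50345. With values as deposited its difference was -0.98 and did not pass (limma trend adjusted p = 0.0635). Its other 2 probes, dim at 4.74 and 5.99, were at 0.48 and -0.35. Its partner in the same complex, DAD1, was at -0.14, with 12472 and 10386 in the controls and 8596 and 10189 with berberine. CLTA, a clathrin light chain, was at 0.50, and the sorting nexins SNX1 and SNX2 at -0.51 and -0.43 (limma trend adjusted p-values of 0.0624, 0.120 and 0.0692). RAB11A, of recycling endosomes, was at 0.01. Of 57 measured genes of the endoplasmic reticulum list 3 were among the 200, and of 45 of the vesicle and proton pump list 3.

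Translation was represented by 6 genes (median -0.03). EIF4B, which assists the helicase that unwinds mRNA leaders, went from 5652 and 4471 to 7367 and 8723 (0.82, limma trend adjusted p = 0.0199). EIF3M and EIF4E2 were at 0.03 and -0.09. The fixed list of translation factors had 4 of 40 measured genes among the 200, with 1 higher and 0 lower.

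Chromatin and transcription genes (22, median -0.09) had 1 fall. RDBP, now NELFE, a subunit of the negative elongation factor, went from 8648 and 6704 to 3027 and 3832 (-0.97, limma trend adjusted p = 0.0174). Its second probe, at a level of 10.96, was at -1.13. CFDP1, named for a chromatin protein, was at 0.84, and the nuclear receptor NR6A1 at -0.87 (limma trend adjusted p-values of 0.0930 and 0.0636). SMARCA1, an ISWI-type remodeller, was at -0.70, and SET at -0.37. Remodellers CHD4 and CHD8 were at 0.21 and 0.01, and HSF1, the factor that drives heat shock genes, at 0.17. KPNA4, an importin of nuclear import, went from 3183 and 2874 to 5878 and 7228 (1.26, limma trend adjusted p = 0.00574).

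**Figure D4:**
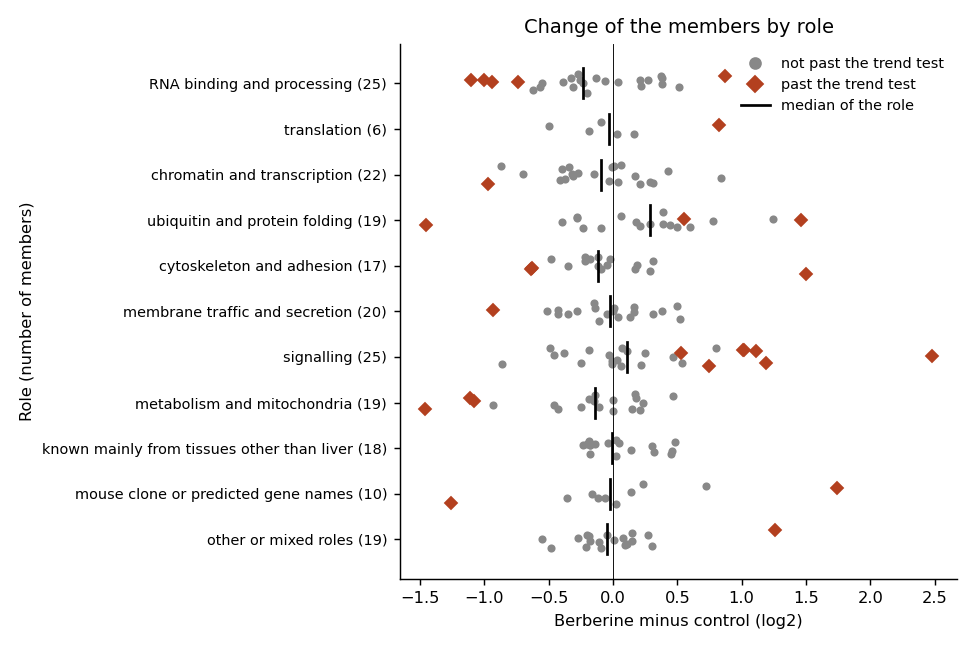
Log2 difference between berberine and control for the 200 genes by role, with the number of genes in brackets. Diamonds are genes past the trend test, circles the others, and bars the median of each role, from -0.23 (RNA binding and processing) to 0.29 (ubiquitin and protein folding). Vertical scatter within a row has no meaning.

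A further 18 of the 200 carry names known mainly from tissues other than liver. They include AQP2, the water channel of the kidney collecting duct (4562 to 6356 over the 4 arrays), and GRIN2B, a glutamate receptor subunit of neurons (4334 to 6297). PLVAP, of endothelial fenestrae, held 10802 to 14849, GIMAP6, a GTPase of lymphocytes, 6253 to 7776, and NRGN, a calmodulin-binding protein of neurons, 2994 to 4688. OLFR214 held 3315 to 4302. None of the 18 passed the trend test, beside 13.5% of the 200 and 1.47% of all genes. Their differences ran from -0.23 (SVS3B) to 0.48 (CLEC4A1), a narrower span than that of any other role. The 18 were grouped after the values were seen, so the span is a description only. Their minima ran from 2673 to 10802, with a median of 3182.

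Among 10 mouse clone and predicted names, 1810013L24RIK rose and 2900010M23RIK fell in the trend test. The first went from 4153 and 2794 to 9563 and 10613 (1.74, limma trend adjusted p = 0.0124), the second from 8200 and 7466 to 2777 and 3084 (-1.26, limma trend adjusted p = 0.00682). Neither name had a human match. Of the 14 rising genes 92.9% had one, and of the 13 falling genes 92.3%.

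After quantile normalization the steadiest genes beside DCK were PKLR, EIF3M and GIMAP6, whose 4 values spanned 0.045, 0.058 and 0.067 on the log2 scale. Their differences were -0.11, -0.12 and -0.08 as deposited, and -0.22, -0.23 and -0.19 with median centring. Their highest deposited values were 1.258, 1.4 and 1.244 times the lowest, against 1.081 times for ATP6V0B. The steadiness thus depends on the scaling. Genes often used as constant references were not among the 200. ACTB ranked 3442nd of all names by minimum intensity and TUBA1A 5858th, and FTH1 was the only one of 14 fixed reference and liver genes in the set (5 of the 14 have no probe with that name).

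Human promoters were compared for what the set shares beyond brightness. RefSeq windows (GRCh38.p14) of 300 bases, 250 of them before the start site, were matched for 157 of the 200. The median GC content was 66.0%, against 64.0% for 11131 promoters of named genes and 58.3% for all 27305 promoters. On either strand, CCGGAAG, the core bound by ETS factors, occurred in 18.5% of the 157, in 14.1% of the promoters of named genes and in 10.7% of all. The palindrome bound by NRF1 (capitals in the JAG1 sequence below) occurred in 3.82%, 1.96% and 1.36%. The cAMP response element TGACGTCA was found in 3.82%, 2.71% and 1.98%, and the EGR-type site GCGGGGGCG in 7.64%, 7.80% and 5.02%. The CCAAT box stood at 38.9%, 35.7% and 35.7%, and TATAAA at 7.64% and 7.84%, with 3264 of all 27305 promoters holding it. CTTTTC stood at 17.8%, 18.5% and 21.2%, and the AP-1 site TGANTCA at 5.73%, 5.34% and 7.76%. These shares are descriptions, and a match is not a site of binding.

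For the called genes the counts are small. CCGGAAG was present in 3 of 11 promoters of falling genes and 1 of 10 of rising genes, and TGANTCA in 0 of both. The 100 bases before the start site are shown for 2 rising genes (JAG1 and RAP1B) and 3 falling ones (UBE2N, OST4 and PGP), as examples, picked after the search, that hold one of these motifs near the start. Capitals mark the motifs: the NRF1 palindrome in JAG1, TGACGTCA in RAP1B, CCGGAAG in UBE2N and OST4, and GCGGGGGCG with 3 CCAAT boxes, 1 of them inverted (ATTGG), in PGP.
JAG1: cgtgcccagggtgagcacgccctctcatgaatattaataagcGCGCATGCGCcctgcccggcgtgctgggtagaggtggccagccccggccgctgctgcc
RAP1B: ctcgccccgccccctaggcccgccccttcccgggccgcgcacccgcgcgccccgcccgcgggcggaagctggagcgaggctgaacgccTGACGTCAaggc
UBE2N: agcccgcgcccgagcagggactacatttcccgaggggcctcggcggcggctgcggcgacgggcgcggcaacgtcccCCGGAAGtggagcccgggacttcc
OST4: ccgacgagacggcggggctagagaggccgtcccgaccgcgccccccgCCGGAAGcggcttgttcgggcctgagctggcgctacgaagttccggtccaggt
PGP: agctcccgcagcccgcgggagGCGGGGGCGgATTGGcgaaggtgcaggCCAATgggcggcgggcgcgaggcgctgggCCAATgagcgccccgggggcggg
The windows lie at chr20:10674000-10674099 (minus strand), chr12:68610799-68610898 (plus), chr12:93441948-93442047 (minus), chr2:27071655-27071754 (minus) and chr16:2214841-2214940 (minus). They are human reference sequence, whereas the probes were designed for mouse transcripts.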

How the data were processed

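Total RNA of 4 samples was profiled on 1-colour arrays (Cy5, per the labels' protocols). The values deposited by the authors are linear intensities, whole numbers over 26423 probes. The scanner and any background or normalization step were not given in the sources used here. The platform annotation gave 20377 probes 1 gene symbol, 0 several and 6046 none, and the last were left out of the tests.

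Intensities of all probes were quantile normalized, values below 0 set to 0, and log2(value + 1) taken. Each gene was represented by its probe with the highest minimum deposited intensity. The test was limma 3.58.1 under R 4.3.3 (lmFit and eBayes, all 4 arrays, no block, 2 residual degrees of freedom), 2-sided, without and with an intensity trend (main and trend test), after a check on simulated data. An exact permutation test of 2 arrays against 2 cannot go below 0.333. Figures used matplotlib 3.10.9 in Python 3.11.15. The number of arrays limits the precision.

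The members, lists, tests and motifs were chosen with earlier results of these data known, the trend test among them. GCGGGGGCG, TGACGTCA and TGANTCA were added to the motifs later. Named by rule were the 12 brightest genes, 3 on each side of the limit, every gene past the main test, the 8 rises and 8 falls with the smallest p and groups apart, up to 3 genes of each fixed list, the 4 steadiest genes and 14 fixed ones. All other names, and the sorting into roles, followed after the values were seen. Roles were assigned from gene names, 1 role a gene. The settings tried were other scalings, pseudocount, probe choices, filter, variance models, a replicate block, each array left out and other limits of the set. Protein sequences were not used here.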

Additional observations from a re-analysis of the deposited data

Results flagged for a closer look

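Unnamed probes were left out of the comparison, and 36 of the 6046 were as bright in every array as the last of the 200 named genes. With all 26423 probes as rows of the limma trend test, 5 of these 36 were higher with berberine than in the controls and 4 were lower. Without the trend 0 passed in limma, and 13 of the 36 had an unadjusted limma p under 0.05. Among the 200 named genes, in the fit of named genes, 13.5% were called in the trend test. Their share with an unadjusted limma p under 0.05 in the main test was 38.5%. Over all named genes these shares were 1.47% and 13.1%, and those over all 26423 probes are not given here. PH_mM_0017629 read 16994 and 16002 in the controls and 39828 and 55042 with berberine, a log2 difference of 1.54. PH_mM_0008818 was at 1.12, PH_mM_0014208 at 0.98, mMC016156 at 0.87 and PH_mM_0012237 at 0.70. Of the 4 lower probes, PH_mM_0015658 read 24481 and 15951 in the controls and 5160 and 6083 with berberine, a log2 difference of -1.73. PH_mM_0015385 was at -1.08, PH_mM_0013806 at -0.83 and PH_mM_0015512 at -0.81. No gene is known for these 9 probes here.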

How the results depend on the processing

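In the main test 1 of the 200 genes was called. The count was 0 with values as deposited, median centring or each named probe as its own row. Limma's unadjusted p was then under 0.05 for 22, 71 and 73 genes. Where a setting changes the fit, the matching counts over all genes are not given here. Such counts alone therefore do not show how far the set differs from other genes. A count of 23 came with a pseudocount of 50, and it was 12 without the dimmest 30% of genes, 27 with an intensity trend, 2 (both higher) with genes ranked by mean and 0 in the top 100 (42 at an unadjusted limma p under 0.05). With the replicate number as a block it was 0 (58 at an unadjusted limma p under 0.05), and 23 in the trend test. Whether same-numbered arrays were paired is not stated. Their deviations from the group means correlated at 0.087 over all genes. That value cannot settle pairing, because quantile normalization takes out shifts of a whole array. The 27 calls of the trend test became 7 with median centring, 56 with the robust option, 16 with a log2 change of at least 1, 13 in the top 100 and 43 in the top 400. Without any single array, where the lone array left is assumed to vary like the other group, both counts ranged from 0 to 0, with 37 to 69 genes of the 200 at an unadjusted limma p under 0.05 in the main test. Groups apart numbered 73 in the top 100 and 299 in the top 400, beside 45.0% of all genes. The median difference moved from -0.021 to -0.160 as deposited and -0.273 with median centring, and the median replicate SD from 0.080 to 0.174 and 0.161. ARHGEF33 turned to -0.19 with the mean of its probes, where its second probe is at -0.91. No other called gene turned direction under any setting run. Taking the names out after the top 200 leaves 191 genes, all within the set, and ranking by mean shares 187. The causes were not tested.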
